A study of Arabidopsis thaliana with 18 samples.

Results

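The response of Arabidopsis leaf discs to fructose was measured across all genes with enough counts, with mannitol as the osmotic control named in the labels. The comparison used 6 of the 18 RNA-seq libraries of the series, 3 from discs on fructose and 3 from discs on mannitol, and 18784 of the 32833 genes in the count table passed the filter on low counts. Discs were cut from mature rosette leaves of the ecotype Col-0, from plants aged 4 weeks and raised in soil at 21 °C with 10 h of light and 14 h of darkness a day. They lay overnight in Murashige and Skoog (MS) medium, diluted as the labels state, with 1% fructose, 1% mannitol or 1% glucose. No transgene or mutant entered the comparison, and the 3 glucose libraries were used to estimate the spread and for direct tests of fructose against glucose. The labels call the 3 samples of each group biological replicates without saying whether they came from separate plants, so the p-values cover only the spread among these samples, and that spread may be technical. RNA came from 50 mg of fresh material per sample, a disc holds every cell type of the leaf blade, and cutting and floating were common to all groups.

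Fructose enters leaf cells through hexose carriers of the plasma membrane and is phosphorylated by fructokinases and hexokinases before it joins glycolysis. Plant cells read their sugar supply through hexokinase, through trehalose 6-phosphate and through a pair of opposed kinases. SnRK1 is active when energy is short and switches on the breakdown of amino acids and lipids, and TOR is active when sugar is plentiful and drives ribosome production and growth. Sugar supply also lowers the transcripts of photosynthesis genes and raises those of anthocyanin synthesis in leaves. Mannitol is taken up and used poorly by Arabidopsis, and so serves as a control for the osmotic strength of the medium. Overnight discs on mannitol are therefore discs without added metabolisable sugar.

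Levels of single genes are read counts relative to library size (CPM), scaled by the trimmed mean of M values. Summed levels of gene groups are CPM of the library total without that scaling. The scaling factors were 0.88 to 0.935 in mannitol and 1.057 to 1.086 in fructose. Summed levels thus stand higher in fructose, relative to mannitol, than they would with the scaling. Values are listed in replicate order 1, 2 and 3. A fold change is log2 of fructose over mannitol from edgeR's quasi-likelihood fit, given with its standard error (SE), with n = 3 per group. A gene was called when its Benjamini-Hochberg adjusted p over all genes tested was under 0.05, and "rose" and "fell" are used of called genes. Spans among libraries and replicate medians are on edgeR's log2 CPM with a prior count of 2, so for low levels they are smaller than log2 ratios of the CPM printed. Levels are not divided by gene length, so they compare samples for one gene and not genes with each other.

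The libraries held 19769388 to 23659648 counts in mannitol and 19129210 to 25306880 in fructose. The 10 most abundant genes took 7.88% to 9.4% of the counts in mannitol and 4.28% to 4.85% in fructose. On the leading principal component, which held 76.2% of the variance, the mannitol libraries lay at -142, -142 and -132, the fructose libraries at 33.4, 53.6 and 19.8 and the glucose libraries at 118, 88.0 and 103. Fructose replicate 2 thus stood apart from the other fructose libraries, on the side of glucose, and results that turn on it are given with and without it.

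Markers of the leaf's cell types were present, and those of mesophyll and phloem were lower in fructose. Over all genes tested, 36.6% rose and 29.5% fell, and each marker set is small. Of the 5 mesophyll markers, 4 fell, and their summed level was 18780, 18730 and 13040 CPM in mannitol and 6188, 3545 and 6820 CPM in fructose. Without fructose replicate 2, 2 of the 5 fell. All 7 phloem markers fell, with summed levels of 688, 794 and 566 CPM in mannitol and 401, 315 and 419 CPM in fructose. The mesophyll markers were RBCS1A, CAB3, CA1, RCA and LHCB2.1, all genes of photosynthesis, and CAB3 and LHCB2.1 are also antenna genes. In bulk discs, fewer cells of a type and less RNA of its marker genes per cell cannot be told apart. Summed guard cell markers overlapped between the groups, at 999, 731 and 487 CPM in mannitol and 914, 549.9 and 842 CPM in fructose, though the potassium channel genes GORK and KAT1 rose. Of the 4 epidermis markers tested, 2 fell, and the summed level was 312, 289.6 and 259 CPM in mannitol and 180.5, 178 and 222 CPM in fructose. Of the 5 xylem and secondary wall markers 3 rose, but none without fructose replicate 3 and 1 without mannitol replicate 2. Their summed level was 33.1, 30.4 and 38.2 CPM in mannitol and 57.1, 45.6 and 66.8 CPM in fructose. Among seed and flower markers, CRA1 and OLEO1 had no count in any of the 6 libraries, AP1 had 1 count in all and AP3 had 6 in each group. AG passed the filter and was not called (log2 fold change 0.21). The summed level of these 5 markers was 0.656, 0.253 and 0.592 CPM in mannitol and 0.603, 0.680 and 0.711 CPM in fructose. Whether a change in cell make-up took part in the gene results was not tested.

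Most of the leaf transcriptome differed. In all, 12415 of 18784 genes (66.1%) were called, 6869 (36.6%) higher and 5546 (29.5%) lower in fructose. Higher genes made up 55.3% of the calls, and 68.2% when libraries were scaled by their size alone, a scaling that moved the median of all genes from 0.09 to 0.345 on the log2 scale. A change of at least 2-fold held for 4166 higher genes (22.2%) and 2679 lower genes (14.3%). The middle 50% of genes lay between -0.56 and 0.91 on the log2 scale. The 3 fructose libraries and the 3 mannitol libraries did not overlap for 13704 genes (73.0%). These shares are the background for the counts of each gene group, those of the markers included.

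**Figure D1:**
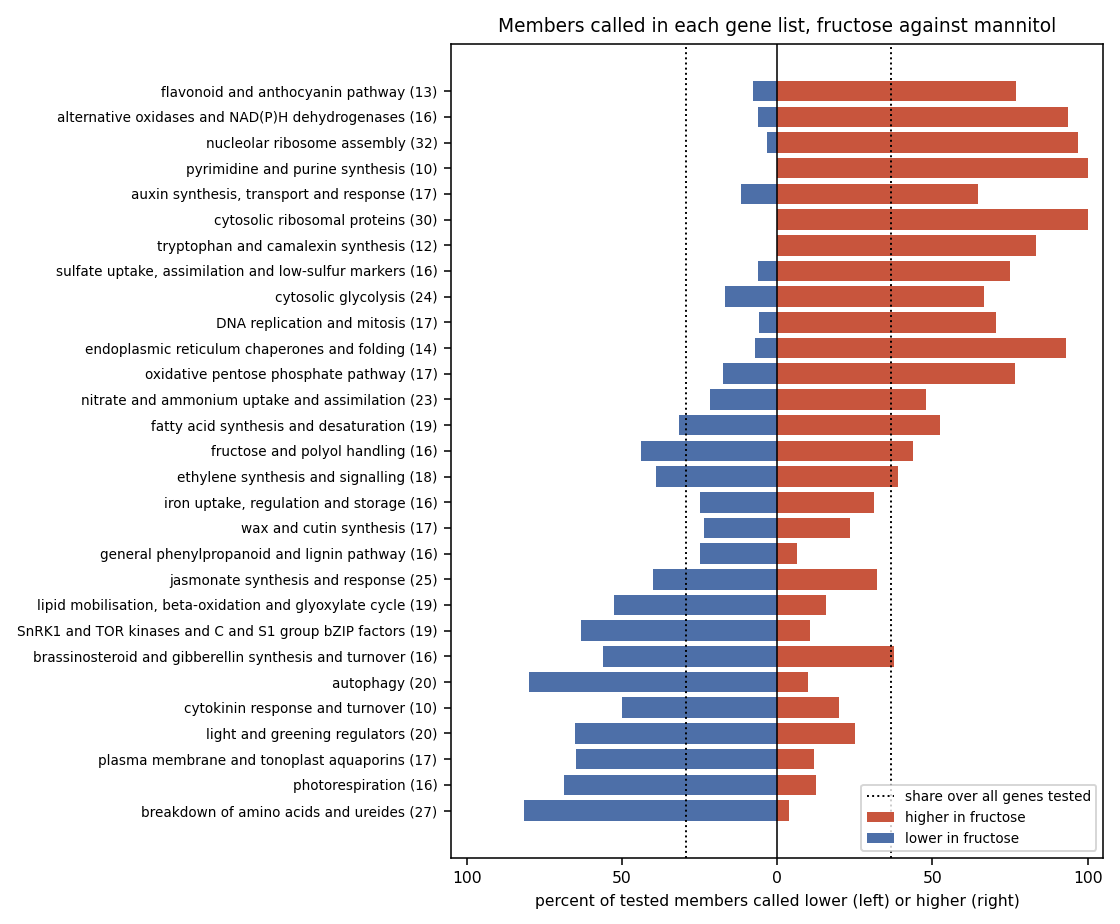
Percent of the tested members of each gene list called lower (bars to the left) or higher (bars to the right) in fructose than in mannitol, with the number tested in brackets and dotted lines at the shares over all genes, 29.5% lower and 36.6% higher. Ribosome, nucleotide and alternative respiration lists reach far to the right, and amino acid breakdown and autophagy far to the left.

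The genes with the smallest p-values were lower in fructose, and several encode sugar or stress regulators. BT5, a protein with BTB and TAZ domains, fell from 95.4, 97.3 and 98.7 CPM in mannitol to 0.695, 0.728 and 0.599 CPM in fructose (log2 fold change -7.17 ± 0.12, edgeR adjusted p = 1.09e-09). TPS11, a trehalose phosphate synthase homologue of the class without clear catalytic activity, had 592, 609 and 615 CPM in the mannitol and 29.6, 32.1 and 30.3 CPM in the fructose libraries (log2 fold change -4.30 ± 0.10, edgeR adjusted p = 8.85e-09). The monosaccharide carrier gene STP14 stood at 119, 105.4 and 132 CPM in mannitol and 1.90, 1.84 and 1.83 CPM in fructose (log2 fold change -5.99 ± 0.15, edgeR adjusted p = 9.81e-09). For each of these genes the lowest mannitol library lay many times above the highest fructose library. The others of the 10 smallest p-values were PDF1.4, STP1, WCRKC1, AT1G54740, AT2G30600, AT5G44572 and AT5G64190, with log2 fold changes from -9.04 for the defensin gene PDF1.4 to -3.43 for AT1G54740.

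Several genes with large falls or rises stood at low levels on one side of the comparison. Those shown here are examples, and over all genes tested the log2 fold changes ran from -11.045 to 11.31. GAT1_2.1, a glutamine amidotransferase of class I, had 2269 counts in mannitol and 3 in fructose, a mannitol to fructose ratio of 914 with a 95% exact counting interval from 312 to 4434. MIOX2, a myo-inositol oxygenase, fell from 130, 136 and 196 CPM in mannitol to 1.62, 0.679 and 0.935 CPM in fructose (log2 fold change -7.15 ± 0.37, edgeR adjusted p = 4.35e-07). BGAL4, a beta-galactosidase, had 629.5, 640.1 and 974 CPM in the mannitol and 4.17, 7.62 and 4.75 CPM in the fructose libraries (log2 fold change -7.09 ± 0.34, edgeR adjusted p = 2.38e-07). These genes were lower in every fructose library. NOGC1, a flavin monooxygenase homologue, stood at 0.402, 0.171 and 0.317 CPM in mannitol and 19.5, 25.7 and 14.6 CPM in fructose (log2 fold change 6.03 ± 0.33, edgeR adjusted p = 2.51e-07). SUC7, of the sucrose carrier family, rose from 0.287, 0.114 and 0.271 CPM in mannitol to 13.7, 28.7 and 9.80 CPM in fructose (log2 fold change 6.21 ± 0.59, edgeR adjusted p = 2.61e-05). PXMT1, a paraxanthine methyltransferase homologue, had 0.402, 0.457 and 0.678 CPM in the mannitol and 39.3, 57.4 and 31.0 CPM in the fructose libraries (log2 fold change 6.33 ± 0.41, edgeR adjusted p = 1.81e-06). These genes were higher in every fructose library. As extreme as the 15 highest and 15 lowest genes with a symbol were 11 higher and 18 lower genes without one.

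The most abundant transcripts of mannitol discs were lower in fructose or level. CAT3, a catalase, stood at 13820, 12940 and 14770 CPM in mannitol and 2655, 1930 and 4136 CPM in fructose (log2 fold change -2.25 ± 0.52, edgeR adjusted p = 0.00493). ESM1, an epithiospecifier modifier of glucosinolate breakdown, stood at 9034, 8682 and 8942 CPM in mannitol and 9073, 7795 and 10730 CPM in fructose (log2 fold change 0.05 ± 0.16, edgeR adjusted p = 0.798). PSBO1, a subunit of the oxygen-evolving complex, had 6848, 6708 and 5386 CPM in the mannitol and 1730, 1075 and 2217 CPM in the fructose libraries (log2 fold change -1.92 ± 0.56, edgeR adjusted p = 0.0157). Without fructose replicate 2, PSBO1 was not called (log2 fold change -1.68, edgeR adjusted p = 0.0665). CAT3 and PSBO1 were lower in every fructose library, whereas ESM1 overlapped and was not called.

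Genes that take up, release or phosphorylate fructose moved in both directions. Of the 16 tested members, 7 rose and 7 fell (43.8% each), with a median of 0.26 beside 0.09 over all genes. Of all genes, 36.6% rose and 29.5% fell. The fructokinase homologue AT5G51830 stood at 13.5, 10.8 and 13.2 CPM in mannitol and 99.8, 179.9 and 80.0 CPM in fructose (log2 fold change 3.26 ± 0.33, edgeR adjusted p = 3.36e-05). The homologue AT1G66430 rose from 25.5, 21.1 and 19.5 CPM in mannitol to 77.8, 67.3 and 89.4 CPM in fructose (log2 fold change 1.83 ± 0.16, edgeR adjusted p = 4.98e-06). The homologue AT2G31390 had 77.7, 67.2 and 92.3 CPM in the mannitol and 138, 158 and 135 CPM in the fructose libraries (log2 fold change 0.86 ± 0.16, edgeR adjusted p = 0.000891). All fructose libraries exceeded all mannitol libraries at these 3 fructokinase genes, and AT5G51830 showed the widest gap. The remaining 4 fructokinase homologues, AT1G06030, AT1G06020, AT3G59480 and AT4G10260, had from 0 to 25 counts summed over a group and were not tested.

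Hexokinases phosphorylate both hexoses, and HXK1 also acts as a glucose sensor. HXK1 stood at 37.6, 35.0 and 40.3 CPM in mannitol and 75.5, 74.2 and 88.6 CPM in fructose (log2 fold change 1.08 ± 0.14, edgeR adjusted p = 8.59e-05). HXK2 rose from 33.7, 33.4 and 34.4 CPM in mannitol to 56.2, 47.0 and 71.5 CPM in fructose (log2 fold change 0.78 ± 0.16, edgeR adjusted p = 0.00183). HKL1, a hexokinase-like protein reported to lack catalysis, had 24.8, 26.2 and 26.3 CPM in the mannitol and 18.2, 18.8 and 16.6 CPM in the fructose libraries (log2 fold change -0.53 ± 0.10, edgeR adjusted p = 0.000847). HXK1 and HXK2 were higher and HKL1 lower in every fructose library. The plastid hexokinase gene HXK3 stood at 0.172, 0.229 and 0.181 CPM in mannitol and 0.463, 0.340 and 0.225 CPM in fructose and was not called, and its groups overlapped.

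Vacuolar fructose carriers diverged. SWEET17, which moves fructose across the vacuolar membrane, rose from 17.3, 17.99 and 17.4 CPM in mannitol to 40.5, 43.8 and 41.0 CPM in fructose (log2 fold change 1.25 ± 0.10, edgeR adjusted p = 2.43e-06). SWEET16, its near relative with broader sugar transport, fell to 1 count over the 3 fructose libraries against 128 in mannitol. The mannitol to fructose ratio of SWEET16 was 155, with a 95% exact counting interval from 27.3 to 6155 that covers counting error only. The groups did not overlap for either gene. The polyol carrier gene PLT5 had 142, 122 and 169 CPM in the mannitol and 101, 150.5 and 111 CPM in the fructose libraries and was not called, but fell without fructose replicate 2 (log2 fold change -0.45, edgeR adjusted p = 0.0287).

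Invertases split sucrose into glucose and fructose in the vacuole, the cell wall and the cytosol. The vacuolar invertase gene ATBETAFRUCT4 stood at 988, 893 and 756 CPM in mannitol and 56.6, 23.1 and 65.1 CPM in fructose (log2 fold change -4.18 ± 0.55, edgeR adjusted p = 0.000196). The other vacuolar invertase gene, AT1G62660, fell from 327, 275 and 282 CPM in mannitol to 178, 197 and 235 CPM in fructose (log2 fold change -0.53 ± 0.15, edgeR adjusted p = 0.00846). The cell wall invertase gene CWINV1 had 373, 363 and 422 CPM in the mannitol and 124, 202 and 126 CPM in the fructose libraries (log2 fold change -1.36 ± 0.18, edgeR adjusted p = 8.79e-05). All 3 were lower in every fructose library, and ATBETAFRUCT4 lost the most. Without fructose replicate 2 the value for ATBETAFRUCT4 was log2 fold change -3.85, edgeR adjusted p = 0.000702. AT1G62660 was not called with libraries scaled by size alone or with all 18 libraries in the fit. Of the cytosolic invertase genes, CINV1 stood at 194, 187 and 182 CPM in mannitol and 39.9, 41.5 and 45.2 CPM in fructose (log2 fold change -2.15 ± 0.08, edgeR adjusted p = 3.9e-08). CINV2 went the other way, at 11.4, 8.74 and 6.46 CPM in mannitol and 25.4, 23.5 and 29.3 CPM in fructose (log2 fold change 1.56 ± 0.19, edgeR adjusted p = 4.53e-05). FINS1, the cytosolic fructose-1,6-bisphosphatase of sucrose synthesis with a reported part in fructose signalling, fell from 92.2, 93.1 and 72.6 CPM in mannitol to 8.06, 7.57 and 10.1 CPM in fructose (log2 fold change -3.32 ± 0.20, edgeR adjusted p = 4.93e-07). The FINS1 transcript was thus lower in every fructose library than in any mannitol library.

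**Figure D2:**
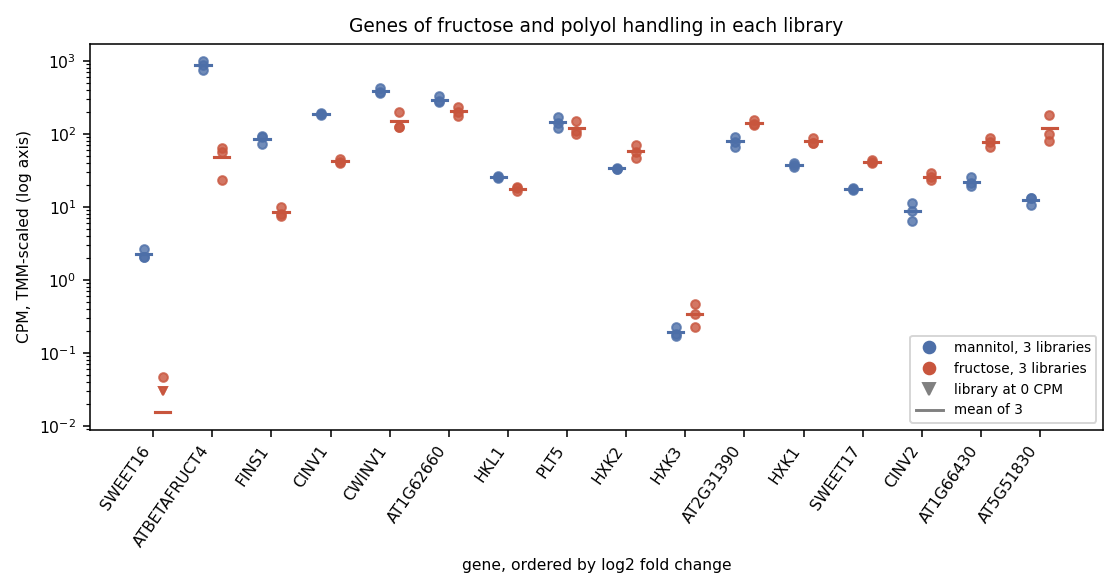
CPM on a log axis of the 16 tested genes of the fructose and polyol list in each mannitol and fructose library, with bars at the group means and triangles for a library at 0 CPM. The fructokinase homologue AT5G51830 is higher and ATBETAFRUCT4 and SWEET16 are lower in every fructose library, and the groups overlap for HXK3 and PLT5.

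Glycolysis genes of the cytosol mostly rose. Of 24 tested, 16 rose and 4 fell, with a median of 1.19, and their summed level was 3357, 3398 and 3494 CPM in mannitol and 13380, 14750 and 12540 CPM in fructose. LOS2, the enolase, had 545, 531 and 549.7 CPM in the mannitol and 3860, 4440 and 3314 CPM in the fructose libraries (log2 fold change 2.84 ± 0.15, edgeR adjusted p = 1.79e-07). GAPC1, a cytosolic glyceraldehyde-3-phosphate dehydrogenase, stood at 397, 414 and 431 CPM in mannitol and 1924, 2440 and 1825 CPM in fructose (log2 fold change 2.32 ± 0.14, edgeR adjusted p = 3.73e-07). AT1G12000, the beta subunit of the pyrophosphate-dependent phosphofructokinase, rose from 27.0, 25.9 and 28.8 CPM in mannitol to 129.9, 125 and 125 CPM in fructose (log2 fold change 2.21 ± 0.09, edgeR adjusted p = 5.31e-08). Fructose values were 4 or more times the mannitol values throughout for these genes. The phosphoglycerate mutase genes iPGAM1 and iPGAM2 rose by 1.97 and 2.33, and the aldolase gene FBA8 by 2.08, on the log2 scale.

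The glycolytic genes that fell were the aldolase genes FBA5 and FBA7, PPC3 and F2KP. FBA5 had 4.93, 5.03 and 1.27 CPM in the mannitol and 0.232, 0.243 and 0.412 CPM in the fructose libraries (log2 fold change -3.599 ± 0.56, edgeR adjusted p = 0.000259). F2KP, which makes and degrades the regulatory metabolite fructose 2,6-bisphosphate, stood at 201, 199 and 174 CPM in mannitol and 53.2, 49.0 and 58.9 CPM in fructose (log2 fold change -1.83 ± 0.11, edgeR adjusted p = 3.34e-07). PPC3, a phosphoenolpyruvate carboxylase, fell from 4.71, 5.71 and 4.93 CPM in mannitol to 1.48, 1.41 and 1.31 CPM in fructose (log2 fold change -1.87 ± 0.25, edgeR adjusted p = 9.52e-05). None of these 3 showed overlap between the groups, and FBA7 had a log2 fold change of -1.37. The aldolase family of the cytosol therefore held members that rose and members that fell.

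The oxidative pentose phosphate pathway supplies NADPH and pentoses, and isoforms of its entry enzyme moved apart. Of the 17 genes tested, 13 rose and 3 fell, with a median of 0.90. The plastid glucose-6-phosphate dehydrogenase gene G6PD3 had 4.99, 4.80 and 5.38 CPM in the mannitol and 111, 143 and 108 CPM in the fructose libraries (log2 fold change 4.57 ± 0.21, edgeR adjusted p = 9.2e-08). The plastid isoform gene G6PD1 stood at 137, 139.7 and 116 CPM in mannitol and 30.6, 18.4 and 37.2 CPM in fructose (log2 fold change -2.18 ± 0.33, edgeR adjusted p = 0.000427). PGL1, a 6-phosphogluconolactonase gene, fell from 39.4, 38.1 and 42.0 CPM in mannitol to 0.741, 0.194 and 1.01 CPM in fructose (log2 fold change -5.88 ± 0.34, edgeR adjusted p = 4.1e-07). G6PD3 was higher, and G6PD1 and PGL1 lower, in all fructose libraries. Others that rose were G6PD2 (2.24 on the log2 scale), the 6-phosphogluconate dehydrogenase gene AT5G41670 (2.42) and the transaldolase gene TRA2 (2.34), and G6PD4 fell (-1.99).

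Genes for the breakdown of amino acids were among the most lowered. Of 27 tested, 22 fell and 1 rose, with a median of -1.98, and the summed level was 7444, 7008 and 8264 CPM in mannitol and 1784, 2040 and 1824 CPM in fructose. BCAT2, a branched-chain aminotransferase, had 169.7, 152 and 201 CPM in the mannitol and 8.48, 7.67 and 9.09 CPM in the fructose libraries (log2 fold change -4.37 ± 0.16, edgeR adjusted p = 3.9e-08). DIN4, a subunit of the branched-chain keto acid dehydrogenase, stood at 243, 227 and 284 CPM in mannitol and 17.1, 14.6 and 15.6 CPM in fructose (log2 fold change -3.998 ± 0.15, edgeR adjusted p = 3.83e-08). MCCA, a subunit of methylcrotonyl-CoA carboxylase in leucine breakdown, fell from 557, 559 and 556 CPM in mannitol to 36.2, 29.6 and 35.6 CPM in fructose (log2 fold change -4.04 ± 0.12, edgeR adjusted p = 1.4e-08). The fructose libraries lay close together and far below mannitol at each step. ETFQO, which passes the electrons of this pathway to ubiquinone, had 114, 116 and 135 CPM in the mannitol and 20.2, 19.2 and 20.02 CPM in the fructose libraries (log2 fold change -2.62 ± 0.10, edgeR adjusted p = 3.75e-08). ERD5, the proline dehydrogenase, stood at 1011, 801 and 983 CPM in mannitol and 28.6, 33.8 and 22.3 CPM in fructose (log2 fold change -5.04 ± 0.23, edgeR adjusted p = 8.56e-08), and averaged 137 CPM in glucose. IVD, of leucine breakdown, fell by 3.58 ± 0.12 and the lysine breakdown gene LKR fell by 3.72 ± 0.51 on the log2 scale. UOX, the urate oxidase, was the member that rose, by 0.35, and it was not called without mannitol replicate 2, without fructose replicate 2 or with the size factors of relative log expression.

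ASN1, an asparagine synthetase long known as a dark-inducible gene, fell from 882, 790.4 and 847 CPM in mannitol to 1.11, 0.0485 and 0.561 CPM in fructose (log2 fold change -10.49 ± 0.57, edgeR adjusted p = 8.63e-07). It had the lowest log2 fold change of the amino acid genes, and the fructose libraries themselves spanned 3.07 log2 units with the prior count, with replicate 2 lowest. The asparagine synthetase genes ASN2 and ASN3 moved the other way: ASN3 had 5.62, 3.37 and 3.80 CPM in the mannitol and 26.1, 27.3 and 26.6 CPM in the fructose libraries (log2 fold change 2.65 ± 0.18, edgeR adjusted p = 9.31e-07), above mannitol in every fructose library. ASN2 rose by 0.63.

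Genes of lipid breakdown moved less uniformly. Of 19 tested, 10 fell and 3 rose, with a median of -0.49. PMDH2, a peroxisomal malate dehydrogenase, stood at 528, 564 and 419.6 CPM in mannitol and 62.7, 36.9 and 59.9 CPM in fructose (log2 fold change -3.24 ± 0.29, edgeR adjusted p = 1.01e-05). SDP1, a lipase of stored oil, fell from 185, 189 and 204 CPM in mannitol to 40.4, 39.9 and 36.1 CPM in fructose (log2 fold change -2.31 ± 0.09, edgeR adjusted p = 3.9e-08). ACX4, the short-chain acyl-CoA oxidase, had 782, 743 and 743 CPM in the mannitol and 124, 118 and 134 CPM in the fructose libraries (log2 fold change -2.59 ± 0.12, edgeR adjusted p = 7.86e-08). Each was lower in all fructose libraries. The long-chain acyl-CoA synthetase gene LACS7 went the other way, at 1.09, as did PMDH1 at 0.72 and the peroxisomal ABC carrier gene PXA1 at 0.22, which was not called when any library was left out (edgeR adjusted p from 0.0581 to 0.158). With libraries scaled by size alone, 6 members rose.

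Autophagy recycles cell contents when nutrients are short, and most of its genes fell. Of 20 tested, 16 fell, against 10 with libraries scaled by size alone, and 2 rose, with a median of -0.67. ATG8E, a ubiquitin-like protein that coats the autophagosome, stood at 148, 141 and 147 CPM in mannitol and 15.4, 16.9 and 15.5 CPM in fructose (log2 fold change -3.19 ± 0.15, edgeR adjusted p = 8.93e-08). ATG8F fell from 487, 459 and 474 CPM in mannitol to 91.9, 85.02 and 104.8 CPM in fructose (log2 fold change -2.33 ± 0.12, edgeR adjusted p = 1.68e-07). ATG13, a subunit of the kinase complex that starts autophagy, had 83.7, 84.9 and 85.9 CPM in the mannitol and 27.4, 23.6 and 27.1 CPM in the fructose libraries (log2 fold change -1.703 ± 0.11, edgeR adjusted p = 6.13e-07). These 3 genes were lower in every fructose library. The ATG8 family was split, since ATG8D rose (0.72) and ATG8G (0.10) was not called. NBR1, a cargo receptor, rose (0.49).

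Among the energy-sensing kinases and their bZIP partners, 12 of 19 fell and 2 rose, with a median of -0.53. AKINBETA1, a beta subunit of SnRK1, stood at 235, 254 and 212 CPM in mannitol and 12.2, 11.7 and 11.3 CPM in fructose (log2 fold change -4.31 ± 0.16, edgeR adjusted p = 4.13e-08). bZIP1, a transcription factor that acts below SnRK1, fell from 55.8, 57.9 and 63.5 CPM in mannitol to 1.76, 2.04 and 1.61 CPM in fructose (log2 fold change -5.04 ± 0.26, edgeR adjusted p = 1.74e-07). bZIP63, which SnRK1 phosphorylates, had 89.0, 90.1 and 87.1 CPM in the mannitol and 7.69, 6.6 and 6.29 CPM in the fructose libraries (log2 fold change -3.69 ± 0.22, edgeR adjusted p = 5.25e-07). The groups did not overlap, and the fructose libraries held a small fraction of the mannitol level at these genes. bZIP11, whose translation is repressed by sucrose, moved the other way at 13.02, 11.5 and 27.3 CPM in mannitol and 95.4, 99.1 and 71.0 CPM in fructose (log2 fold change 2.35 ± 0.31, edgeR adjusted p = 0.000177). Its levels were higher in every fructose library. The catalytic subunits changed little, with -0.55 for KIN10, -0.64 for KIN11 and -0.53 for TOR on the log2 scale, all called lower. The beta subunit gene AT4G16360 rose (0.24), and it was not called without fructose replicate 3 or any of the mannitol replicates. With libraries scaled by size alone KIN10 and TOR were not called.

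The TATCCA letters, known from starved cereal cells as a sugar-response element of amylase promoters, lay in the promoters of several of these genes. They were found on either strand between 250 bases before and 50 bases after the start in 16.1% of 27443 protein-coding promoters, in 25.1% of those of genes at least 2-fold lower and in 13.5% of those of genes at least 2-fold higher. Among the amino acid breakdown genes 33.3% held them, or 22.2% in the bases before the start alone, and among the autophagy genes 40.0% or 35.0%. Among the energy-sensing genes the share was 15.8% (3 of 19), near that of all promoters, and among the 12 reference genes for quantitative PCR it was 58.3%. The stretches below, from RefSeq on build TAIR10.1 and written on the gene's own strand, show the matches in 3 strongly lowered genes, ASN1 and, of the energy-sensing genes, bZIP1 and AKINBETA1. Capitals mark TATCCA or its reverse complement TGGATA and, in ASN1, a G-box CACGTG.
ASN1: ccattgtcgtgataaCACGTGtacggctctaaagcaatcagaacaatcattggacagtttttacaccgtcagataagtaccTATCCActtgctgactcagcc
bZIP1: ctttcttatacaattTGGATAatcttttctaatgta
AKINBETA1: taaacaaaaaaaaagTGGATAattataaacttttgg
The ASN1 stretch lies at chr3:17441512-17441613 on the minus strand, bases -182 to -81 from the start. The bZIP1 stretch lies at chr5:20051730-20051765 on the plus strand, bases -99 to -64. The AKINBETA1 stretch lies at chr5:7205430-7205465 on the plus strand, bases -47 to -12. A match describes the letters and not binding.

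Transcripts of ribosome assembly genes rose almost as a block. Of 32 nucleolar assembly genes, 31 rose, with a median of 2.48, and in the fructose replicates the median over the mannitol mean was 2.39, 2.71 and 2.26. NUC2, a nucleolin of the nucleolus, stood at 2.29, 1.89 and 1.85 CPM in mannitol and 37.9, 48.5 and 38.3 CPM in fructose (log2 fold change 4.37 ± 0.16, edgeR adjusted p = 3.75e-08). NOP56, a core protein of the particles that methylate ribosomal RNA, rose from 35.9, 36.7 and 37.98 CPM in mannitol to 322, 348 and 311 CPM in fructose (log2 fold change 3.15 ± 0.11, edgeR adjusted p = 3.48e-08). CBF5, the pseudouridine synthase of the nucleolus, had 28.6, 27.7 and 25.7 CPM in the mannitol and 247, 279.7 and 238 CPM in the fructose libraries (log2 fold change 3.22 ± 0.14, edgeR adjusted p = 7.72e-08). At all 3 genes the fructose libraries were several times above mannitol. AT5G27120, a homologue of NOP56, rose by 3.58 ± 0.18 and APUM24, an RNA-binding protein of ribosomal RNA processing, by 3.15 ± 0.16. The cytosolic maturation factors REIL1 and REIL2 parted: REIL2 stood at 24.6, 25.5 and 27.7 CPM in mannitol and 85.1, 93.0 and 76.8 CPM in fructose (log2 fold change 1.71 ± 0.12, edgeR adjusted p = 1.16e-06). REIL1 fell from 96.8, 86.4 and 81.7 CPM in mannitol to 47.8, 43.6 and 46.4 CPM in fructose (log2 fold change -0.94 ± 0.09, edgeR adjusted p = 7.36e-06), and was the only assembly gene that fell.

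All 30 cytosolic ribosomal protein genes of the list rose, with a median of 2.02. Their summed level was 3179, 3319 and 3152 CPM in mannitol and 13080, 14540 and 13730 CPM in fructose, without overlap. RPS6A, whose protein is phosphorylated below TOR, had 102, 87.2 and 85.6 CPM in the mannitol and 564, 579.9 and 574 CPM in the fructose libraries (log2 fold change 2.64 ± 0.12, edgeR adjusted p = 8.93e-08). RPL10B stood at 3.5, 3.14 and 2.17 CPM in mannitol and 16.3, 20.6 and 20.3 CPM in fructose (log2 fold change 2.71 ± 0.18, edgeR adjusted p = 6.63e-07). RPSAB rose from 3.04, 3.94 and 2.62 CPM in mannitol to 27.3, 39.4 and 25.9 CPM in fructose (log2 fold change 3.27 ± 0.23, edgeR adjusted p = 1.23e-06). Pairs of near-identical ribosomal protein genes can share reads, and the sources used here do not say how such reads were assigned. The wider family taken by symbol or synonym was less uniform, with 38 of 53 tested higher and 10 lower. Its lower members included RPL4 (-1.23) and RPS9 (-0.95), which encode plastid ribosomal proteins. RPL18AA, annotated as a protein of the 60S subunit, also fell (-1.55) and is not in the list of 30. The smallest changes of the list were those of RPS18C (0.65) and RPS15A (0.79).

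The synthesis of pyrimidines and purines feeds ribosomal RNA, and all 10 tested genes rose, with a median of 2.21. PYRD, dihydroorotate dehydrogenase, had 6.20, 5.997 and 5.83 CPM in the mannitol and 53.5, 63.9 and 45.1 CPM in the fructose libraries (log2 fold change 3.17 ± 0.16, edgeR adjusted p = 1.27e-07). PYRB, aspartate transcarbamoylase, stood at 33.8, 36.5 and 34.7 CPM in mannitol and 167, 176 and 149.8 CPM in fructose (log2 fold change 2.23 ± 0.10, edgeR adjusted p = 6.08e-08). PUR7, an enzyme of the purine pathway, rose from 6.598, 5.997 and 6.06 CPM in mannitol to 33.6, 33.7 and 28.3 CPM in fructose (log2 fold change 2.36 ± 0.13, edgeR adjusted p = 1.83e-07). No mannitol library reached the lowest fructose library at any of these genes. ASE1, a purine pathway amidotransferase, had 3 counts in mannitol and 113 in fructose, a ratio of 31.2 with a 95% exact counting interval from 10.4 to 154.

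The promoters of ribosome genes held the telo box AAACCCTA and the site II letters TGGGCC, both described for plant ribosome genes. The telo box, on either strand in the same window, occurred in 6.22% of all promoters, in 14 of 32 (43.8%) for the assembly genes and in 13 of 30 (43.3%) for the ribosomal protein genes. Much of this lay past the start: in the 250 bases before it the shares were 12.5% and 10.0%, against 4.49% over all promoters. Site II occurred in 15.5% of all promoters, 53.1% for assembly genes and 63.3% for ribosomal protein genes. The telo box was held by 12% of promoters of genes at least 2-fold higher and by 2.54% of those at least 2-fold lower. Only 4 of the 32 assembly genes held a telo box in the 250 bases before the start. The stretches below, from RefSeq on build TAIR10.1 and on the gene's strand, each hold such a match beside site II. All are of genes that rose, and their layout is not typical of the list. Capitals mark TGGGCC, AAACCCTA and their reverse complements GGCCCA and TAGGGTTT, and none of the marked matches overlap.
NOP56: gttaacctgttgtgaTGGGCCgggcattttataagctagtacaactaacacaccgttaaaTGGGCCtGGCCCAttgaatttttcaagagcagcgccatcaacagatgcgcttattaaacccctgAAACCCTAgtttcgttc
AT5G27120: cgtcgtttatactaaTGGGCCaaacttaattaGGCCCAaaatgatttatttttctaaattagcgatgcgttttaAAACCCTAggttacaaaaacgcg
FIB1: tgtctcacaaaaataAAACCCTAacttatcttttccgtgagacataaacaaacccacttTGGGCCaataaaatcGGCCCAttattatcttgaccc
REIL2: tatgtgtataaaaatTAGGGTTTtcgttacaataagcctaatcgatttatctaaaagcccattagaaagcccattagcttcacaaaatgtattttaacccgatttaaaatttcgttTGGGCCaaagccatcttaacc
The NOP56 stretch lies at chr1:20986953-20987093 on the minus strand, bases -141 to -1 from the start. The AT5G27120 stretch lies at chr5:9540743-9540839 on the plus strand, bases -118 to -22. FIB1 encodes fibrillarin, the RNA methylase of those particles, and its stretch lies at chr5:21293925-21294019 on the plus strand, bases -222 to -128. The REIL2 stretch lies at chr2:10402973-10403109 on the minus strand, bases -175 to -39. FIB1 rose by 2.08 ± 0.16 on the log2 scale.

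**Figure D3:**
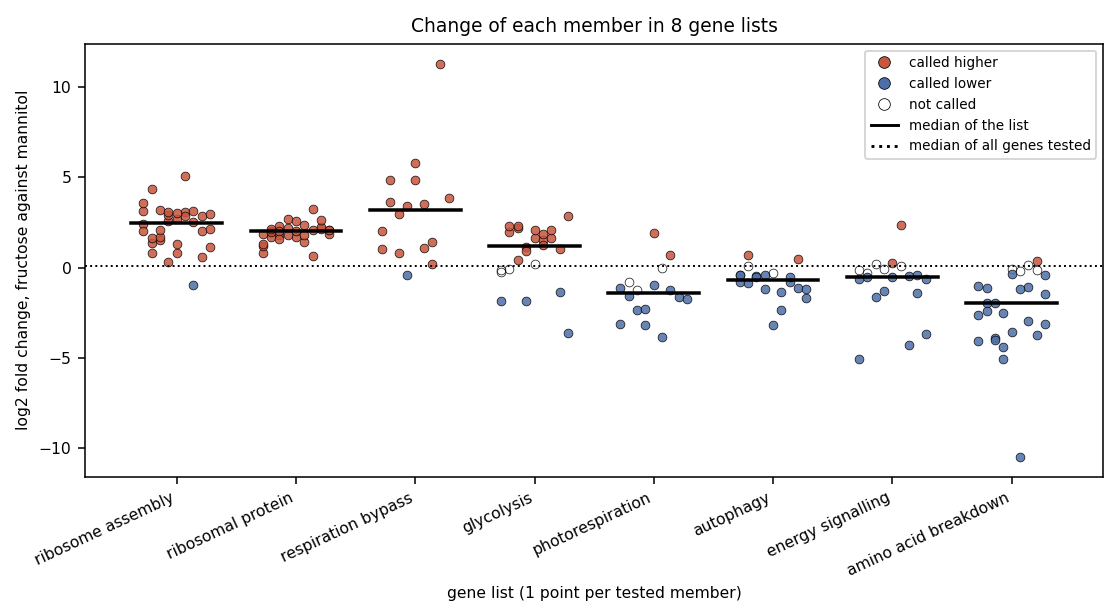
log2 fold change of fructose over mannitol for each tested member of 8 gene lists (points), with a bar at each list's median and a dotted line at the median over all genes, 0.09. Ribosome assembly has a median of 2.48 with REIL1 below 0, and amino acid breakdown a median of -1.98 with ASN1 lowest.

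Genes for chaperones of the endoplasmic reticulum rose with few exceptions. Of 14 tested, 13 rose and 1 fell, with a median of 1.05. BIP2, a luminal HSP70 chaperone, had 72.8, 69.9 and 82.1 CPM in the mannitol and 370.3, 451 and 528 CPM in the fructose libraries (log2 fold change 2.59 ± 0.24, edgeR adjusted p = 8.1e-06). ERDJ3A, a co-chaperone, stood at 2.24, 2.06 and 3.98 CPM in mannitol and 16.3, 16.9 and 14.9 CPM in fructose (log2 fold change 2.52 ± 0.23, edgeR adjusted p = 5.72e-06). bZIP60, the transcription factor of the unfolded protein response, rose from 42.1, 37.5 and 47.3 CPM in mannitol to 104, 140.5 and 95.1 CPM in fructose (log2 fold change 1.42 ± 0.15, edgeR adjusted p = 1.89e-05). Each was higher in every fructose library. The calreticulin gene CRT3 fell (-0.52), but not with libraries scaled by size alone or with all 18 libraries in the fit. The letters CACGTG lay in 57.1% of the promoters of this list and in 7.68% of all promoters, and in the 250 bases before the start alone in 35.7% and 6.49%. BIP1 and BIP2 are close paralogues whose reads may be shared.

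Antenna genes of photosynthesis fell, and by how much depended on the replicate. Of 19 genes with a light-harvesting symbol, 13 fell and none rose, with a median of -1.96. The summed level was 101200, 96170 and 73450 CPM in mannitol and 27970, 17000 and 34550 CPM in fructose, and fructose replicate 2 was lowest. The number that fell was 4 without fructose replicate 2, 8 without mannitol replicate 1, mannitol replicate 2 or fructose replicate 1, and 3 without the 100 most abundant genes, some of which are antenna genes. LHB1B1 had 3046, 2947 and 831 CPM in the mannitol and 164, 59.1 and 181 CPM in the fructose libraries (log2 fold change -4.08 ± 1.13, edgeR adjusted p = 0.0124). CAB1 stood at 29580, 27510 and 19980 CPM in mannitol and 6262, 3502 and 8061 CPM in fructose (log2 fold change -2.11 ± 0.77, edgeR adjusted p = 0.0382), and it was not called when any of the 6 libraries was left out (edgeR adjusted p from 0.0606 to 0.134). Without fructose replicate 2, LHB1B1 was not called either (log2 fold change -3.72, edgeR adjusted p = 0.0643). CAB3 stood at 3585, 3351 and 1990 CPM in mannitol and 1159, 669 and 1375 CPM in fructose with an edgeR adjusted p of 0.161, and so was not called although its groups did not overlap. CAB1, CAB2 and CAB3 are near-identical neighbours, so their reads may be shared. Against glucose, 16 of the 19 were higher in fructose and 0 lower, where 24.7% of all genes were higher and 24.6% lower.

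Photorespiration recovers the carbon of oxygenated sugar phosphates, and genes for its enzymes in the peroxisome and mitochondrion mostly fell. Of 16 tested, 11 fell and 2 rose, with a median of -1.41 and replicate medians of -1.204, -1.73 and -1.31. The summed level was 11000, 11290 and 9185 CPM in mannitol and 4266, 3685 and 3856 CPM in fructose. AGT1, the serine glyoxylate aminotransferase, had 2129, 2147 and 1780 CPM in the mannitol and 138, 101 and 185 CPM in the fructose libraries (log2 fold change -3.84 ± 0.41, edgeR adjusted p = 4.37e-05). CAT2, the leaf peroxisomal catalase, stood at 1493, 1546 and 1113 CPM in mannitol and 286, 274 and 247 CPM in fructose (log2 fold change -2.36 ± 0.18, edgeR adjusted p = 1.95e-06). GOX2, a glycolate oxidase, fell from 693, 678 and 613 CPM in mannitol to 204, 167 and 218 CPM in fructose (log2 fold change -1.75 ± 0.12, edgeR adjusted p = 6.9e-07). The fructose libraries were below every mannitol library for these genes. The plastid dicarboxylate carriers went the other way: DIT1 had 253, 291 and 256 CPM in the mannitol and 1066, 1068 and 904 CPM in the fructose libraries (log2 fold change 1.93 ± 0.12, edgeR adjusted p = 4.01e-07), and DIT2.1 rose by 0.72. Against glucose, 14 of 16 were higher in fructose and none lower.

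Regulators of light response and greening mostly fell. Of 20 tested, 13 fell and 5 rose, with a median of -0.88, and 3 rose without mannitol replicate 2. GLK2, a transcription factor of chloroplast development, stood at 106, 108 and 107 CPM in mannitol and 22.9, 16.5 and 25.1 CPM in fructose (log2 fold change -2.32 ± 0.23, edgeR adjusted p = 1.96e-05). Its partner GLK1 stood at 288, 281 and 279.5 CPM in mannitol and 298, 215 and 332 CPM in fructose and was not called. CRY1, a blue light receptor, had 412, 405 and 360.2 CPM in the mannitol and 121, 96.0 and 122 CPM in the fructose libraries (log2 fold change -1.79 ± 0.12, edgeR adjusted p = 7.99e-07). GLK2 and CRY1 were lower in all fructose libraries, while GLK1 libraries overlapped. PHYA fell (-1.49) and PHYB did not pass the test (-0.01). HYH, a bZIP homologue of HY5, rose to 31.3, 40.0 and 18.5 CPM from 6.66, 8.28 and 7.96 CPM (log2 fold change 1.97 ± 0.30, edgeR adjusted p = 0.000387). The light stress genes ELIP1 and ELIP2 rose by 4.21 and 5.01, and the phytochrome-interacting factor gene PIF3 by 0.77. ELIP1 was not called without mannitol replicate 2.

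Of 59 tested genes of the chloroplast genome, 25 fell and none rose, with a median of -0.74. Their summed level was 293, 314 and 282 CPM in mannitol and 198, 178 and 176 CPM in fructose. For the 68 genes of the mitochondrial genome, 16 (23.5%) rose and 3 (4.41%) fell, with a median of 0.45. Both shares lay below those over all genes, 36.6% and 29.5%. Their summed level was 106, 104 and 148 CPM in mannitol and 159.9, 221 and 136 CPM in fructose, so the groups overlapped and fructose replicate 2 was highest. Without fructose replicate 2, 10 rose, and without mannitol replicate 1, 9 rose. The sources used here do not say how messenger RNA was selected before sequencing.

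Genes for the bypasses of the mitochondrial electron chain rose, with 1 exception. Of 16 genes for alternative oxidases, alternative NAD(P)H dehydrogenases and linked stress proteins, 15 rose and 1 fell, with a median of 3.195 and replicate medians of 3.15, 3.64 and 2.49. AOX1A, the main alternative oxidase, stood at 25.9, 26.1 and 34.4 CPM in mannitol and 411, 634 and 225 CPM in fructose (log2 fold change 3.88 ± 0.37, edgeR adjusted p = 2.04e-05). NDB2, an external NADH dehydrogenase, rose from 24.6, 21.6 and 31.6 CPM in mannitol to 251, 374 and 196 CPM in fructose (log2 fold change 3.398 ± 0.26, edgeR adjusted p = 2.8e-06). NDB4, another external dehydrogenase, had 0.172, 0.286 and 0.542 CPM in the mannitol and 21.5, 25.7 and 12.98 CPM in the fructose libraries (log2 fold change 5.82 ± 0.41, edgeR adjusted p = 2.14e-06). Replicate 3 was the lowest of the fructose libraries for the list median, and every fructose library was above mannitol for these genes. AOX1B had no count in mannitol and 1034 in fructose, at least 285-fold higher against a floor of 3 counts over the group. NAC13, a membrane-bound factor that relays mitochondrial stress, stood at 12.8, 14.2 and 15.8 CPM in mannitol and 115, 153 and 73.1 CPM in fructose (log2 fold change 2.99 ± 0.25, edgeR adjusted p = 6.83e-06). Its relative NAC017, placed upstream of it, fell (-0.40), but not with libraries scaled by size alone. AT2G21640, a marker of mitochondrial stress, rose by 3.5.

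Among families that act on foreign and oxidised compounds, tau class glutathione transferase and UGT glycosyltransferase genes rose more often than they fell. The CYP monooxygenase genes did not: of 139 tested, 37 (26.6%) rose and 47 (33.8%) fell, with a median of -0.13. For all genes the shares were 36.6% and 29.5%. Of 25 tau class glutathione transferase genes, 15 rose and 4 fell, with a median of 1.42. GSTU25 rose from 0.172, 0.171 and 0 CPM in mannitol to 8.15, 15.8 and 6.36 CPM in fructose (log2 fold change 6.49 ± 0.80, edgeR adjusted p = 0.000125). GSTU24 had 5.11, 5.31 and 5.33 CPM in the mannitol and 166, 261 and 122 CPM in the fructose libraries (log2 fold change 5.12 ± 0.33, edgeR adjusted p = 1.44e-06). GSTU25 was at or near 0 in mannitol, and both genes were far higher in every fructose library. Among 45 UGT genes, 24 rose and 10 fell. UGT73C1 rose from 1 to 1605 counts over the group, a ratio of 1329 with a 95% exact counting interval from 238 to 52510. UGT74E2, which conjugates the auxin indole butyric acid, stood at 3.73, 5.60 and 4.38 CPM in mannitol and 213, 345 and 102 CPM in fructose (log2 fold change 5.59 ± 0.48, edgeR adjusted p = 1.24e-05). The efflux carrier gene DTX1 rose from 0.402, 0.800 and 0.814 CPM in mannitol to 203, 305 and 99.4 CPM in fructose (log2 fold change 8.21 ± 0.62, edgeR adjusted p = 6.18e-06). Both of the latter were higher in every fructose library. Tandem copies of GSTU and UGT73C genes may share reads.

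Nitrogen and sulfur assimilation genes rose more often than they fell. Of 23 tested nitrogen genes, 11 (47.8%) rose and 5 (21.7%) fell, with a median of 0.63. Over all genes 36.6% rose and 29.5% fell, so the nitrogen list lay nearer to the background than the sulfur list below. NIR1, nitrite reductase, had 260.5, 278 and 299 CPM in the mannitol and 1198, 1486 and 1133 CPM in the fructose libraries (log2 fold change 2.19 ± 0.14, edgeR adjusted p = 4.43e-07). NRT1.1, the dual-affinity nitrate carrier, stood at 85.8, 81.7 and 84.7 CPM in mannitol and 188, 250 and 209 CPM in fructose (log2 fold change 1.36 ± 0.11, edgeR adjusted p = 2.57e-06). The plastid glutamine synthetase gene GLN2 moved the other way, at 1128, 1170 and 918 CPM in mannitol and 628, 591 and 643 CPM in fructose (log2 fold change -0.79 ± 0.16, edgeR adjusted p = 0.00129). NIR1 and NRT1.1 were above, and GLN2 below, every mannitol library. The siroheme synthesis gene UPM1, needed for nitrite and sulfite reductase, rose by 1.96. The nitrate carrier gene NRT2.6 fell (-2.55).

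Genes of sulfate uptake and assimilation and low-sulfur markers mostly rose: of 16 tested, 12 rose and 1 fell. Their median was 1.41, with replicate medians of 1.40, 1.59 and 1.02. APR3, an adenosine phosphosulfate reductase, rose from 19.7, 18.3 and 32.5 CPM in mannitol to 258, 428 and 118 CPM in fructose (log2 fold change 3.51 ± 0.47, edgeR adjusted p = 0.000228). SIR, sulfite reductase, had 342, 324 and 338 CPM in the mannitol and 1529, 1972 and 1178 CPM in the fructose libraries (log2 fold change 2.22 ± 0.20, edgeR adjusted p = 5.75e-06). LSU2, a small protein that is induced when sulfur is short, stood at 1.49, 0.685 and 1.94 CPM in mannitol and 16.4, 34.6 and 11.6 CPM in fructose (log2 fold change 3.89 ± 0.48, edgeR adjusted p = 0.000129). Fructose replicate 3 was lowest in the list median, yet all fructose libraries exceeded mannitol at these 3 genes. The ATP sulfurylase gene APS4 fell (-0.70) while APS1 rose (0.83). Against glucose, 10 of 16 were lower in fructose and 1 higher.

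Iron genes moved both ways, 5 of 16 higher and 4 lower, with a median of 0.09. FRO6, a leaf ferric reductase, fell from 255, 264 and 167 CPM in mannitol to 7.60, 5.53 and 7.11 CPM in fructose (log2 fold change -5.08 ± 0.24, edgeR adjusted p = 1.4e-07). FRO7, the chloroplast ferric reductase, had 155, 160.4 and 118 CPM in the mannitol and 18.6, 13.98 and 15.9 CPM in the fructose libraries (log2 fold change -3.16 ± 0.20, edgeR adjusted p = 7.65e-07). NAS3, a nicotianamine synthase, stood at 51.9, 51.1 and 95.9 CPM in mannitol and 6.25, 6.84 and 5.54 CPM in fructose (log2 fold change -3.42 ± 0.34, edgeR adjusted p = 2.77e-05). All were far lower in each fructose library. The ferritin genes FER2 and FER3 rose by 2.46 and 1.98, and NAS1 and NAS4 by 2.88 and 3.63. Without mannitol replicate 2, 3 of the iron genes rose, and FER2 was not among the called genes without mannitol replicate 1 or 2.

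Genes of the tryptophan pathway and its camalexin branch mostly rose. Of 12 tested, 10 rose and none fell, with a median of 1.68 and replicate medians of 1.51, 1.94 and 1.56. AT2G04400, indole-3-glycerol phosphate synthase, rose from 48.5, 51.6 and 55.2 CPM in mannitol to 205, 283 and 207 CPM in fructose (log2 fold change 2.16 ± 0.14, edgeR adjusted p = 5.18e-07). TSA1, the alpha subunit of tryptophan synthase, had 69.3, 64.1 and 83.4 CPM in the mannitol and 259.8, 324 and 292 CPM in the fructose libraries (log2 fold change 2.01 ± 0.14, edgeR adjusted p = 7.65e-07). PAD3, the last enzyme of camalexin synthesis, stood at 3.04, 2.57 and 4.66 CPM in mannitol and 615, 965 and 494 CPM in fructose (log2 fold change 7.64 ± 0.37, edgeR adjusted p = 1.99e-07). All fructose libraries were above mannitol, and PAD3 spanned 0.97 log2 units among them. CYP71A13, an earlier camalexin enzyme, rose by 7.10 ± 0.38, while its near copy CYP71A12 (0.16) was not called. Against glucose, 10 of 12 were lower in fructose and 2 higher.

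Flavonoid and anthocyanin genes stood far higher in fructose replicates 1 and 3 than in replicate 2. Of 13 tested, 10 rose and 1 fell, with a median of 3.93, and the replicate medians over the mannitol mean were 3.502, 0.03 and 3.29. TT4, chalcone synthase, rose from 1.43, 1.14 and 0.181 CPM in mannitol to 98.2, 13.2 and 61.4 CPM in fructose (log2 fold change 6.03 ± 1.52, edgeR adjusted p = 0.00792). DFR, dihydroflavonol reductase, had 0, 0 and 0.0452 CPM in the mannitol and 18.6, 0.0485 and 7.82 CPM in the fructose libraries. LDOX, the next enzyme of anthocyanin synthesis, stood at 0, 0.0571 and 0 CPM in mannitol and 12.7, 0 and 4.86 CPM in fructose. Fructose replicate 2 held the lowest fructose value at all 3 genes, and at LDOX it was at 0, so that the groups overlapped. Without fructose replicate 2 the value for TT4 was log2 fold change 6.50, edgeR adjusted p = 0.0124. PAP2, the MYB factor that drives anthocyanin genes, rose from 0, 0.229 and 0.181 CPM in mannitol to 2.22, 2.52 and 1.91 CPM in fructose (log2 fold change 3.93 ± 0.49, edgeR adjusted p = 5.33e-05). Its fructose libraries were not ordered as those of the enzymes, since replicate 2 was highest. The number of members that rose was 10 without fructose replicate 2, 5 without mannitol replicate 1, and 4 without mannitol replicate 2, mannitol replicate 3 or fructose replicate 1. It was also 4 with limma-voom and 6 with the replicate block. TTG1, a scaffold of the anthocyanin regulators, fell (-0.87). F3H is listed at 0 in all 6 libraries, and whether the gene was silent or its reads were not counted cannot be told from the table.

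The late anthocyanin genes were close to absent from the mannitol counts. DFR had 1 and 611 counts in mannitol and fructose, a ratio of 506 with a 95% exact counting interval from 90.4 to 20010, and it was not called without mannitol replicate 3. TT19, the carrier protein of anthocyanins, had 0 and 288, at least 79.5-fold higher, but it was called only without fructose replicate 2 among the fits that left out a library. LDOX was called in those fits without fructose replicate 2 or 3, and TT4, DFR, LDOX and TT19 were not called with limma-voom. The general phenylpropanoid pathway that feeds these enzymes moved little: of 16 tested, 1 rose and 4 fell, with a median of -0.12. The number that fell was 7 with the size factors of relative log expression. PAL1, phenylalanine ammonia-lyase, had 629, 560.1 and 732 CPM in the mannitol and 127, 117 and 138 CPM in the fructose libraries (log2 fold change -2.33 ± 0.22, edgeR adjusted p = 9.46e-06). C4H, the next enzyme, stood at 716, 651 and 801 CPM in mannitol and 316, 264 and 331 CPM in fructose (log2 fold change -1.25 ± 0.15, edgeR adjusted p = 4.56e-05). PAL1 and C4H were lower in every fructose library. CCoAOMT1, a methyltransferase of lignin synthesis, rose by 1.805 ± 0.16, and 2 members rose without fructose replicate 2.

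**Figure D4:**
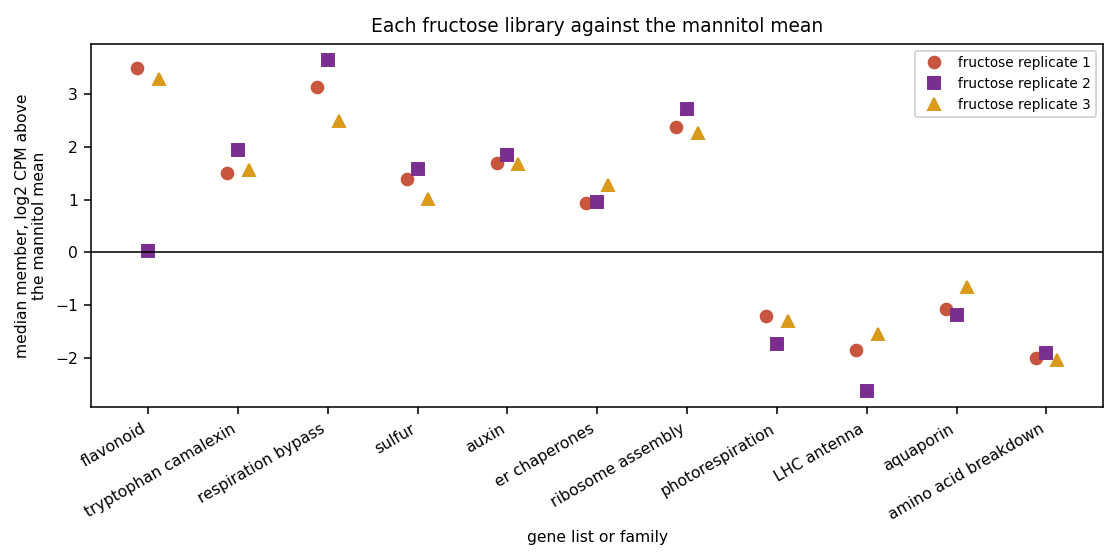
Median log2 CPM over the mannitol mean of the members of 11 gene groups, for each fructose replicate. Replicate 2 lies near 0 for flavonoid genes, where replicates 1 and 3 lie above 3, and it is lowest for the antenna genes.

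Auxin genes rose in greater number than they fell: of 17 tested, 11 rose and 2 fell, with a median of 2.08 and replicate medians of 1.696, 1.84 and 1.68. GH3.3, an enzyme that links auxin to amino acids, rose from 0.172, 0.114 and 0.181 CPM in mannitol to 97.7, 96.2 and 67.5 CPM in fructose (log2 fold change 9.06 ± 0.90, edgeR adjusted p = 4.04e-05). IAA1, a repressor that auxin induces, had 0.918, 0.914 and 0.226 CPM in the mannitol and 5.93, 3.54 and 5.01 CPM in the fructose libraries (log2 fold change 2.85 ± 0.46, edgeR adjusted p = 0.000351). Both were higher in every fructose library. GH3.6 fell (-1.58) though it belongs to the same enzyme family as GH3.3, and TAA1, of auxin synthesis, fell (-0.93). IAA5 had no count in mannitol and 116 in fructose, at least 32.0-fold higher.

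Ethylene genes moved both ways. Of 18 tested, 7 rose and 7 fell (38.9% each, beside 36.6% and 29.5% of all genes), with a median of 0.14. With libraries scaled by size alone, 2 fell. ACS6, which makes the ethylene precursor, stood at 5.85, 6.23 and 10.7 CPM in mannitol and 48.9, 72.1 and 30.8 CPM in fructose (log2 fold change 2.72 ± 0.37, edgeR adjusted p = 0.000229). EIN3, the transcription factor of the pathway, fell from 493, 511 and 517 CPM in mannitol to 227, 220.5 and 208 CPM in fructose (log2 fold change -1.22 ± 0.09, edgeR adjusted p = 1.07e-06). ACS6 was above mannitol in all fructose libraries, and EIN3 was below. Its homologue EIL1 also fell (-1.08).

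Cytokinin response regulators were split too. Of 10 cytokinin genes tested, 2 rose and 5 fell, with a median of -0.84. ARR6, a response regulator of the type that cytokinin induces, had 3.04, 3.71 and 9.49 CPM in the mannitol and 0.556, 1.504 and 1.27 CPM in the fructose libraries (log2 fold change -2.29 ± 0.51, edgeR adjusted p = 0.00283). ARR5 fell by 2.04 ± 0.47 on the log2 scale, and ARR8 (0.92) and ARR9 (0.97) rose. ARR6 libraries did not overlap.

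Of 16 brassinosteroid and gibberellin genes, 6 rose and 9 fell, with a median of -0.55. CPD, a cytochrome P450 of brassinosteroid synthesis, stood at 904, 946 and 819 CPM in mannitol and 245, 216 and 269 CPM in fructose (log2 fold change -1.87 ± 0.14, edgeR adjusted p = 1.6e-06). GA20OX2, of gibberellin synthesis, rose from 0.172, 0.400 and 0.0452 CPM in mannitol to 2.41, 1.12 and 2.96 CPM in fructose (log2 fold change 3.43 ± 0.76, edgeR adjusted p = 0.0026). GA3OX1, which makes the active form, had 4.30, 5.54 and 2.58 CPM in the mannitol and 12.3, 10.4 and 13.7 CPM in the fructose libraries (log2 fold change 1.56 ± 0.25, edgeR adjusted p = 0.000325). CPD was lower and both gibberellin genes were higher in every fructose library.

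Jasmonate genes moved both ways, 8 of 25 (32.0%) higher and 10 (40.0%) lower, with a median of -0.27. The shares of all genes were 36.6% and 29.5%. JAZ9, a repressor of the pathway, stood at 205, 204 and 189.9 CPM in mannitol and 29.4, 23.4 and 34.5 CPM in fructose (log2 fold change -2.78 ± 0.14, edgeR adjusted p = 1.27e-07). CYP94C1, which oxidises the active hormone, rose from 2.35, 2.06 and 2.58 CPM in mannitol to 8.66, 16.9 and 7.71 CPM in fructose (log2 fold change 2.24 ± 0.40, edgeR adjusted p = 0.000979). The allene oxide cyclase genes diverged, since AOC1 fell (-1.78), AOC3 rose (1.87) and AOC2 (-0.21) was not called. They lie side by side and may share reads. JAZ9 was lower and CYP94C1 higher in every fructose library.

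DNA replication genes rose: 12 of 17 rose and 1 fell, with a median of 1.08. RNR1, the large subunit of ribonucleotide reductase, had 18.9, 19.8 and 14.1 CPM in the mannitol and 84.8, 88.7 and 73.1 CPM in the fructose libraries (log2 fold change 2.23 ± 0.15, edgeR adjusted p = 6.05e-07). PCNA1, the sliding clamp of DNA polymerase, stood at 2.01, 1.54 and 1.36 CPM in mannitol and 6.35, 7.67 and 8.42 CPM in fructose (log2 fold change 2.20 ± 0.22, edgeR adjusted p = 9.93e-06). MCM6, a subunit of the replication helicase, rose from 2.87, 2.57 and 1.22 CPM in mannitol to 5.93, 7.72 and 8.87 CPM in fructose (log2 fold change 1.77 ± 0.36, edgeR adjusted p = 0.00141). Mannitol and fructose libraries did not overlap at these genes. The mitotic kinase gene CDKB1;1 (-0.02) was not called, and KN, a syntaxin of the cell plate, fell (-1.35) but in no fit without mannitol replicate 1, 2 or 3 or fructose replicate 1 or 2.

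Cell wall expansion genes differed by family. Of 12 expansin genes, 8 rose and none fell, with a median of 1.42. EXPA15 had 0, 0.171 and 0.0904 CPM in the mannitol and 3.98, 3.83 and 5.69 CPM in the fructose libraries (log2 fold change 5.59 ± 0.66, edgeR adjusted p = 4.02e-05). EXPA5 stood at 0.0574, 0.114 and 0.0904 CPM in mannitol and 7.50, 2.86 and 9.05 CPM in fructose (log2 fold change 6.12 ± 0.69, edgeR adjusted p = 3.29e-05). Both rose from low mannitol levels in every fructose library. Of 22 genes for xyloglucan-modifying enzymes, 5 rose and 9 fell. XTH31 rose from 0.0574, 0.571 and 0.0452 CPM in mannitol to 47.0, 17.9 and 52.0 CPM in fructose (log2 fold change 7.49 ± 0.87, edgeR adjusted p = 0.000101). XTH25 had 106, 82.0 and 72.7 CPM in the mannitol and 0.232, 0.388 and 0.187 CPM in the fructose libraries (log2 fold change -8.34 ± 0.24, edgeR adjusted p = 1.28e-08). XTH6 stood at 118, 111 and 61.3 CPM in mannitol and 1.02, 0.631 and 0.898 CPM in fructose (log2 fold change -6.82 ± 0.42, edgeR adjusted p = 1.5e-06). XTH31 was higher, and XTH25 and XTH6 lower, in each fructose library. Without mannitol replicate 3, 1 expansin gene fell.

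Aquaporin genes, which set the water permeability of membranes, mostly fell. Of 17 tested, 11 fell and 2 rose, with a median of -0.97 and replicate medians of -1.07, -1.197 and -0.65. TIP2;1, of the vacuolar membrane, fell from 747, 825 and 333 CPM in mannitol to 41.5, 32.9 and 72.4 CPM in fructose (log2 fold change -3.70 ± 0.55, edgeR adjusted p = 0.000432). PIP1;5, of the plasma membrane, had 374, 349.5 and 335 CPM in the mannitol and 30.5, 24.0 and 33.2 CPM in the fructose libraries (log2 fold change -3.59 ± 0.18, edgeR adjusted p = 1.14e-07). PIP2;7 stood at 894, 816 and 595 CPM in mannitol and 193, 181 and 183 CPM in fructose (log2 fold change -2.05 ± 0.15, edgeR adjusted p = 1.56e-06). The fructose libraries were lower throughout. PIP1;4 and PIP2;8 rose by 1.21 and 1.41. Against glucose, 13 of 17 were higher in fructose and none lower.

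Lipid genes of the plastid and the surface moved in both directions. Of 19 fatty acid genes, 10 rose and 6 fell, with a median of 0.41. WRI1, a transcription factor that drives fatty acid synthesis, rose from 3.56, 2.91 and 3.03 CPM in mannitol to 16.8, 20.9 and 13.2 CPM in fructose (log2 fold change 2.42 ± 0.19, edgeR adjusted p = 1.85e-06). MOD1, an enoyl reductase of the pathway, had 43.6, 46.6 and 36.3 CPM in the mannitol and 134, 124 and 136 CPM in the fructose libraries (log2 fold change 1.64 ± 0.11, edgeR adjusted p = 5.63e-07). FAD5, a plastid desaturase, stood at 96.0, 117 and 64.1 CPM in mannitol and 29.9, 27.1 and 30.01 CPM in fructose (log2 fold change -1.67 ± 0.20, edgeR adjusted p = 6.32e-05). WRI1 and MOD1 were higher, and FAD5 lower, in all fructose libraries. Of 17 wax and cutin genes, 4 rose and 4 fell (23.5% each, below the 36.6% and 29.5% of all genes). When any of mannitol replicates 1 and 2 or fructose replicates 1 and 2 was left out, 1 or 2 fell. The wax ester synthase gene WSD1 rose from 0.287, 0.286 and 0.226 CPM in mannitol to 3.15, 5.39 and 5.50 CPM in fructose (log2 fold change 4.12 ± 1.06, edgeR adjusted p = 0.00813). The alkane synthesis gene CER3 had 65.3, 69.3 and 61.3 CPM in the mannitol and 25.7, 36.7 and 34.2 CPM in the fructose libraries (log2 fold change -1.02 ± 0.15, edgeR adjusted p = 0.00019). WSD1 was higher and CER3 lower in every fructose library.

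Transcription factor families were divided, as were all genes, of which 36.6% rose and 29.5% fell. Of 51 WRKY genes, 11 rose and 19 fell, with WRKY40 at 2.64 and WRKY26 at -3.23. Of 58 NAC genes, 22 rose and 14 fell. NAC044, a factor of the DNA damage response, stood at 0.746, 0.457 and 0.226 CPM in mannitol and 33.0, 30.1 and 17.0 CPM in fructose (log2 fold change 5.84 ± 0.41, edgeR adjusted p = 2.31e-06). NAC103, which acts in the unfolded protein response, rose from 0.287, 0.114 and 0.0904 CPM in mannitol to 4.91, 4.42 and 4.49 CPM in fructose (log2 fold change 4.81 ± 0.34, edgeR adjusted p = 9.62e-07). Both were higher in every fructose library. Of 59 MYB genes, 17 rose and 17 fell (28.8% each), and of 27 bZIP genes, 7 (25.9%) rose and 12 (44.4%) fell. Of 20 ERF genes, 10 rose and 8 fell, with 6 higher without fructose replicate 2 or without mannitol replicate 2. ERF71, a factor of the low-oxygen response, rose from 2 to 1225 counts, a ratio of 507 with a 95% exact counting interval from 140.1 to 4191. The heat shock factor gene HSFA7A had 6.20, 7.997 and 11.7 CPM in the mannitol and 0.695, 0.971 and 0.299 CPM in the fructose libraries (log2 fold change -3.75 ± 0.40, edgeR adjusted p = 1.72e-05). All its fructose values were below those in mannitol.

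Genes used as references for quantitative PCR were not all level. Of 12, 3 rose and 5 fell. ACT2, an actin, stood at 440.3, 461 and 451 CPM in mannitol and 136, 153 and 154 CPM in fructose (log2 fold change -1.61 ± 0.11, edgeR adjusted p = 9.31e-07). AT5G60390, an elongation factor 1-alpha gene, rose from 717, 766 and 704 CPM in mannitol to 2633, 2845 and 2808 CPM in fructose (log2 fold change 1.92 ± 0.11, edgeR adjusted p = 2.99e-07). PP2AA3, a phosphatase subunit, had 74.8, 70.2 and 67.8 CPM in the mannitol and 68.5, 63.1 and 72.2 CPM in the fructose libraries (log2 fold change -0.06 ± 0.08, edgeR adjusted p = 0.526). ACT2 was lower and AT5G60390 higher in every fructose library. PP2AA3, UBC9 and AT4G34270, all common references, were not called.

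A direct test of fructose against glucose separated many of these genes. Fructose and glucose were each compared with the same mannitol libraries, so the hexoses are set against each other by the direct test. The next counts split genes by their call against mannitol. Both tests use the same fructose libraries, so these counts depend on that split. Of 6869 genes higher in fructose than in mannitol, 2492 were lower than in glucose, 1114 were higher and 3263 were not called. Of 5546 lower genes, 1836 were higher than in glucose, 947 were lower and 2763 were not called. All 32 assembly genes were lower in fructose than in glucose, and 8 of 16 bypass genes were lower and 2 higher, where 24.6% of all genes were lower and 24.7% higher. NOP56 averaged 327 CPM in fructose and 469 CPM in glucose (log2 difference -0.52 ± 0.10, edgeR adjusted p = 0.00356). AOX1A averaged 423 CPM in fructose and 1340 CPM in glucose (log2 difference -1.66 ± 0.34, edgeR adjusted p = 0.00479). ERD5 averaged 28.2 CPM in fructose (log2 difference -2.28 ± 0.20, edgeR adjusted p = 0.000487), far below its glucose level given above. Of the mitochondrial genome's 68 tested genes, 63 were lower in fructose than in glucose.

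Within the fructose group, the genes of at least 20 CPM with the widest spread included BAM5, VSP2, ABCG40, BGLU18 and TT4. BAM5, a beta-amylase of the phloem, stood at 7.52, 2.86 and 0.769 CPM in mannitol and 84.3, 1.99 and 88.5 CPM in fructose, a span of 5.41 log2 units among fructose libraries. VSP2, a vegetative storage protein induced by jasmonate, stood at 38.7, 16.2 and 8.59 CPM in mannitol and 53.3, 0.291 and 50.6 CPM in fructose, a span of 7.11 with the prior count. ABCG40, an abscisic acid importer, had 2.58, 2.17 and 2.12 CPM in the mannitol and 96.5, 239 and 24.7 CPM in the fructose libraries, a span of 3.27. Fructose replicate 2 was far below the others at BAM5 and VSP2 and above them at ABCG40.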

How the data were processed

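RNA-seq of leaf discs was analysed from the deposited table of read counts per gene, which the authors made. Per the submitters' processing notes, fastp, HISAT2 2.0.5, StringTie 1.3.3 and build TAIR10 were used. The sources used here name neither the counting tool nor its strand setting, so reads of paralogues and of antisense or overlapping genes may be shared. Counts of the 9 disc libraries were fitted in edgeR 4.0.16 (R 4.3.3) by quasi-likelihood, filtered by expression within groups and scaled by TMM, with group as the only term, and adjusted by Benjamini-Hochberg over 18784 genes at 0.05. The SE is the fold change divided by the root of the F statistic. Intervals on ratios of counts and the floor of 3 counts cover counting error only. Gene names came from RefSeq (32548 of 32833 genes, the 285 others of organelles). Of 626 list entries in 36 lists, 617 were kept, and 22 families were taken by symbol.

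The genes named were drawn from the called members of lowest p in each list (5 at most), members against the list's majority, all fructose and polyol genes, the 15 highest and 15 lowest genes with a symbol, the 12 most abundant of each group, the 10 smallest p, the 10 widest within fructose, the 5 largest changes each way of each family, and reference genes. Others, such as genes not called, subunits and paralogues set beside a named gene, were named after their values were seen. Some genes that the rule takes are not reported here. The members and the lists were chosen with earlier results of these data known. Counts were simulated for the fructose comparison (18573 genes) with few changed genes, as many higher as lower. On them edgeR recovered 65% of 2-fold and 86% of 4-fold changes, with 4.43% false calls, and DESeq2 made 17.8% false calls. In the data themselves 66.1% of genes were called, so these rates may not carry over to them. Alternatives were limma-voom (limma 3.58.1), DESeq2 1.42.0, other scalings, filters and sample sets, a replicate block and leaving out each library.

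Mannitol replicates 1 and 2 were closer to each other (chi-square per degree of freedom 4.59) than other pairs (19 to 60.2), but above sampling noise, and were kept as 2 samples. Tables were made with Python 3.11.15 and pandas 2.3.3.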

Additional observations from a re-analysis of the deposited data

How the results depend on the processing

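Requiring a change of at least 2-fold as well as the adjusted p left 4166 higher and 2679 lower genes, the only change of setting that moved either count over 1.5 times. Leaving out each library in turn gave 6287 to 6589 higher and 5048 to 5239 lower genes. With the size factors of relative log expression 6309 genes were higher and 6263 lower, with libraries scaled by size alone 8524 and 3974, with DESeq2 6318 and 6228, and with limma-voom 6796 and 5630. Of 231 genes named, 175 kept direction and call in every alternative run that tested them, the stricter thresholds included. Without the 100 most abundant genes, 13 named genes were missing. With DESeq2, with at least 1 CPM in at least 3 libraries, and with fructose and mannitol libraries alone, 4 were missing each time. In the 250 bases before the start alone, TATCCA lay in 13.6% of all promoters, 20.3% of those of genes at least 2-fold lower and 12.2% of those at least 2-fold higher. With 3 libraries a group, a change that was not called may be too small to detect at this depth.

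The replicate block gave 6542 higher and 5237 lower genes. Mannitol and fructose libraries of the same number had correlations of 0.057, -0.187 and -0.245 in their deviations from the group means. Those of different numbers had correlations from -0.222 to 0.329. These values gave no sign that the numbers pair the samples, but with 3 libraries a group they cannot exclude it.

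Genes that were not called changed sign as follows, as log2 fold changes, and the cause was not tested. With libraries scaled by size alone PP2AA3 stood at 0.19, PHYB at 0.25, GLK1 at 0.25, AOC2 at 0.0403, CDKB1;1 at 0.23, UBC9 at 0.16 and AT4G34270 at 0.24. ESM1 stood at -0.0456 with relative log expression and with DESeq2, at -0.0145 with fructose and mannitol libraries alone and at -0.0184 with all 18 libraries. With limma-voom CDKB1;1 stood at 0.0088 and VSP2 at -0.65. With no filter PHYB stood at 0.0074 and GLK1 at 0.0071, and GLK1 stood at 0.0003 with the replicate block and at 0.0011 with mannitol replicates 1 and 2 merged. Without each library in turn the values ran from -0.0276 to 0.0293 for PHYB, -0.1372 to 0.1572 for GLK1, -0.1887 to 0.4531 for CYP71A12, -0.2336 to 0.2869 for CDKB1;1, -0.073 to 0.1567 for ESM1 and -0.0356 to 0.0053 for AT4G34270.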

Other observations

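Some genes moved in opposite directions in fructose and in glucose, each set against mannitol. The comparisons share the mannitol libraries, which makes opposite calls less likely, so the number of such genes is not read as small or large. The direct test of fructose against glucose is given for the genes named below. In all, 52 genes were called higher in fructose and lower in glucose, and 56 lower in fructose and higher in glucose. The genes below were named after their values were seen, with CPM in replicate order.

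SCPL7, a serine carboxypeptidase-like gene, had 27.6, 27.1 and 38.8 CPM in mannitol, 14.96, 16.8 and 13.1 CPM in fructose and 81.7, 59.4 and 53.1 CPM in glucose, and it was lower in fructose than in glucose (log2 difference -2.12 ± 0.20, edgeR adjusted p = 0.000531). The peroxidase family gene AT5G39580 had 35.5, 42.4 and 45.8 CPM in mannitol, 14.03, 12.2 and 7.48 CPM in fructose and 87.8, 76.5 and 88.1 CPM in glucose (log2 difference -2.91 ± 0.21, edgeR adjusted p = 0.000383). EXL2, of the EXORDIUM family, had 257, 255 and 248 CPM in mannitol, 89.9, 169.7 and 80.4 CPM in fructose and 593, 432 and 374 CPM in glucose (log2 difference -2.04 ± 0.29, edgeR adjusted p = 0.00135). These 3 genes were lowest in fructose and highest in glucose, and the libraries of the groups did not overlap. The order was reversed for AT4G34760, a SAUR-like gene of a family that auxin induces, which had 2.18, 1.94 and 1.49 CPM in mannitol, 4.12, 3.49 and 3.29 CPM in fructose and 0.615, 1.22 and 0.773 CPM in glucose (log2 difference 2.04 ± 0.30, edgeR adjusted p = 0.00122).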
